A study of Homo sapiens with 9 samples.

Results

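The genes described here are 39 genes of TGF-beta, activin and BMP signalling, taken as a list of gene symbols and matched to Ensembl identifiers among the 60664 genes of the count table. They comprise 12 ligands, 10 receptors, 8 SMADs, 5 antagonists and 4 ID genes. All 39 were found in the table, and 37 passed the filter on low counts and were tested. BMP7 and NOG did not pass it. The measurement was mRNA sequencing of Huh-7, a human hepatocellular carcinoma cell line, in 3 forms with 3 libraries each. WT cells carry unedited vault RNA genes. In 1-1 KO cells (genotype vtRNA1-1 KO) VTRNA1-1 had been knocked out with CRISPR/Cas9, and in 1-2 KO cells (genotype vtRNA1-2 KO) VTRNA1-2 had been. Vault RNAs are short non-coding RNAs, part of which is bound in the vault particle. All cells were untreated and were grown to 80% confluency in medium with 10% serum. WT and 1-1 KO cells came from another laboratory and 1-2 KO cells were a single-cell clone derived from that WT line. Each knockout is thus 1 line, and an effect of the gene cannot be told apart from a difference between lines.

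Ligands of the TGF-beta superfamily are secreted dimers. They bring together type II and type I receptor kinases at the cell surface, and the type I receptor then phosphorylates receptor SMADs, which enter the nucleus with SMAD4. TGF-beta and activin ligands act mainly through SMAD2 and SMAD3, and BMP ligands through SMAD1, SMAD5 and SMAD9. SMAD6 and SMAD7 inhibit the receptors and are themselves induced by the pathway. The ID genes encode inhibitors of helix-loop-helix transcription factors and are classical BMP targets. In the liver, hepatocytes are a source of the activin subunits INHBC and INHBE, and BMP signalling induces the iron hormone hepcidin.

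Total counts per library were between 32384469 and 41782387. These mRNA libraries hardly capture vault RNAs. A single count of VTRNA1-1, in WT replicate 1, was found over all libraries, and VTRNA1-2 had 0 counts in all 9, so that the knockouts could not be checked here. All 8 hepatocyte and hepatoma markers were above 3 counts in every line, with a summed level of 13520 to 14437 CPM (each count scaled to the size of its library) in WT, 28942 to 29846 in 1-1 KO and 19957 to 21844 in 1-2 KO. In 1-2 KO the higher sum came from AFP (7419 CPM against 1759 in WT) and ALB (4739 against 2531), while TTR, FGB and APOB had lower means than in WT. The 3 endothelial markers summed to 7.39 to 8.04, 6.40 to 7.22 and 0.831 to 1.10 CPM, and the 3 immune markers to 113 to 114, 98.5 to 105 and 19.8 to 20.7 CPM, nearly all of it from PECAM1 and LYZ, respectively. The immune marker PTPRC went the other way from LYZ, with means of 0.153 CPM in WT, 0.522 in 1-1 KO and 0.998 in 1-2 KO. CDH5 was at 0 counts in every 1-1 KO library and CD68 at 3 counts or fewer in all 9 libraries. With 7 counts or fewer per library, CDH5 had a mean of 0.045 CPM in WT and 0.123 in 1-2 KO. VWF, also rare, had 0.071 and 0.033 CPM. The 4 fibroblast and stellate markers summed to 15.8 to 16.5, 15.9 to 16.4 and 25.5 to 27.3 CPM. Between WT and 1-1 KO the mean of ACTA2 went from 2.78 to 0.081 CPM and that of PDGFRB from 1.77 to 5.45 CPM. The part of these marker differences in the results was not tested. WT replicate 3 and 1-2 KO replicate 1 stood apart from the other libraries of their lines and deviated from them in a like manner, with a correlation of 0.393 across genes, which are not independent replicates. ID1, ID3, TGFB1, FSTL3 and GDF15 were high in both libraries, and results that rest on them are given with and without them.

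The sequences upstream of 4 members show how the letters that SMAD proteins are known to bind are placed. GTCTAGAC joins a GTCT box recognised by SMAD3 and SMAD4 to its reverse complement, and GGCGCC is a GC-rich site bound by the BMP SMADs. Each is its own reverse complement, so that both strands were searched at once, and they do not overlap each other. SMAD6 is shown because, of the 35 members that could be searched, only it had GTCTAGAC in the stretches searched around RefSeq starts. BAMBI is shown as an example of an antagonist with the GC-rich letters there. ID1 and ID3 are shown because they are BMP targets with neither in the stretches searched. Sequence further upstream was not searched, so sites there are not excluded for any member. Each run is the 250 bases before the RefSeq start in GRCh38.p14, 5′ to 3′ on the strand of the gene, with the searched letters in capitals. They lie at chr15:66701986-66702235 (plus strand) for SMAD6, chr10:28677271-28677520 (plus strand) for BAMBI, chr20:31605039-31605288 (plus strand) for ID1 and chr1:23559502-23559751 (minus strand) for ID3.
SMAD6: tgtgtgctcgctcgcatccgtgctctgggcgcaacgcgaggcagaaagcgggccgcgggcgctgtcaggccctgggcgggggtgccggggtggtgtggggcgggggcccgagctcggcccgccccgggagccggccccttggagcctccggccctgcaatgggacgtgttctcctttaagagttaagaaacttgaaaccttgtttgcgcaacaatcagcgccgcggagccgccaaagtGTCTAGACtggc
BAMBI: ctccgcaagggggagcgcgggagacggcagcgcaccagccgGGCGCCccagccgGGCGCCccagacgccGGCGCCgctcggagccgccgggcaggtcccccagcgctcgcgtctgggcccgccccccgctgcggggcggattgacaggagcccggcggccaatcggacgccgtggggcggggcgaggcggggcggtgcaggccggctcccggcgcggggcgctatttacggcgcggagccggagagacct
ID1: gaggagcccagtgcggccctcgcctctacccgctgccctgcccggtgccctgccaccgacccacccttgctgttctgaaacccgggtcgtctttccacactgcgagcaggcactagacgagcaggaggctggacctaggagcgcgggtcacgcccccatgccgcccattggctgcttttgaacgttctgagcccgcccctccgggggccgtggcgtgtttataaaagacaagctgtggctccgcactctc
ID3: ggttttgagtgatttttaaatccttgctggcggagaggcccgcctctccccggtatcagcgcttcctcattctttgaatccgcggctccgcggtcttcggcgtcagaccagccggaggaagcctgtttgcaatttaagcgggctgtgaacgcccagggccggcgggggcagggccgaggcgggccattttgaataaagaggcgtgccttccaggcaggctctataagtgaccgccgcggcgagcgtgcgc

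In the RefSeq windows from 250 bases before to 50 bases after a start, 35 of the 39 members matched, with 62 windows. INHBE, BMP2, BMP7 and NOG did not match. GTCTAGAC was in 71 of 35116 windows of all genes (0.202%) and in 1 member window, that of SMAD6, at position -12 from the start. GGCGCC was in 6748 windows (19.2%), or at least 1 window of 22.0% of genes. Among the members it was in 16 of the 62 windows, which belonged to 14 of the 35 matched members. In BAMBI it began at positions -209, -196 and -181. In INHBB it began at -250, -171 and 28, and in ACVR1B, which had it 4 times, at -160, -108, -78 and -27. These matches are a description of letters and not of binding.

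In 1-1 KO compared to WT, 16 of the 37 tested members were upregulated and 9 downregulated at an adjusted p under 0.05, and 12 did not pass the test. Over all 17207 tested genes, 63.4% were called (32.5% higher and 30.9% lower), so that a large share of called members is also what the whole transcriptome gave. In 1-2 KO, 20 members were upregulated, 7 were downregulated and 10 did not pass, with 54.4% of all tested genes called (28.2% higher and 26.2% lower). The change was over 1 on the log2 scale for 6 members in 1-1 KO and 9 in 1-2 KO, where the share of all tested genes was 13.4% and 11.7%. The median log2 fold change of the members was 0.11 in 1-1 KO and 0.30 in 1-2 KO, against 0.011 and 0.019 over all tested genes. Both knockouts were compared with the same 3 WT libraries, and their values are therefore set side by side without a test of likeness. In the direct comparison of 1-2 KO with 1-1 KO, which uses no WT library as a group, 18 members were higher in 1-2 KO, 12 were lower and 7 did not pass, with 65.3% of all tested genes called (33.1% higher and 32.2% lower). The libraries of the lines compared did not overlap for 68.9% of all tested genes in 1-1 KO against WT, 58.4% in 1-2 KO against WT and 69.8% in 1-2 KO against 1-1 KO, so that separated libraries were common.

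**Figure D1:**
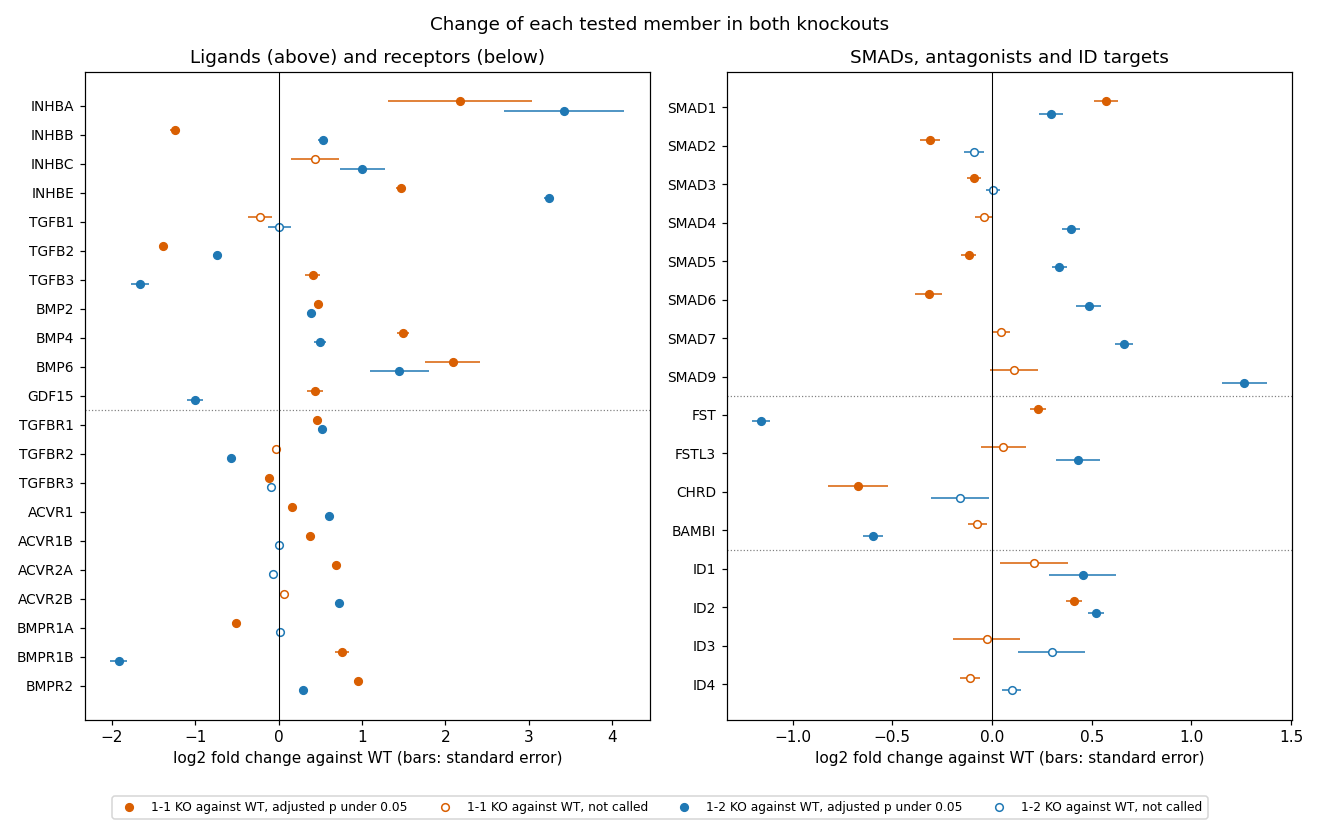
Change of the 37 tested members against WT on the log2 scale (x axis) for 1-1 KO (orange) and 1-2 KO (blue), with the standard error from the fit as bars; filled points have an adjusted p under 0.05 and open points do not, and dotted lines separate the roles. INHBE lies at 1.46 and 3.24, and BMPR1B lies at 0.76 in 1-1 KO and at -1.92 in 1-2 KO.

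The ligands held most of the large changes. Of the 11 tested ligands, 7 were higher and 2 lower in 1-1 KO, and 7 were higher and 3 lower in 1-2 KO. That is 81.8% and 90.9% called, beside 63.4% and 54.4% of all tested genes. These counts and those of changes over 1 include INHBA, which passed the filter on low counts through its 1-2 KO libraries. INHBE (chromosome 12, 57452323 to 57459280), which encodes the liver activin E subunit, rose in both knockouts. It had 669, 557 and 505 counts in WT, 1786, 1815 and 1844 in 1-1 KO, and 6059, 6072 and 6172 in 1-2 KO. The 3 lines did not overlap. The mean level was 15.9 ± 0.98 CPM in WT, 43.8 ± 1.5 in 1-1 KO and 150 ± 5.5 in 1-2 KO (SD, n = 3), which is 2.76-fold higher in 1-1 KO (adjusted p = 2e-11) and 9.45-fold higher in 1-2 KO (adjusted p = 8.3e-15). Per kb of exon INHBE was the sixth ligand in WT at 5.22 CPM per kb and the highest in 1-2 KO at 49.3 ± 1.8 CPM per kb, followed there by BMP2 at 44.1 ± 3.1 CPM per kb.

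The other activin subunits moved differently. INHBB (chromosome 2, 120346136 to 120351803), the subunit of activin B, had 2001, 1930 and 1753 counts in WT, 995, 856 and 890 in 1-1 KO, and 3286, 3072 and 2871 in 1-2 KO. It was 2.38-fold lower in 1-1 KO (log2 fold change -1.25 ± 0.057 SE) and 1.44-fold higher in 1-2 KO (0.53 ± 0.053), with no overlap between lines. INHBA, the subunit of activin A, was nearly absent, with 1, 3 and 0 counts in WT, 13, 1 and 8 in 1-1 KO, and 19, 14 and 19 in 1-2 KO. WT was at the floor of 3 counts per library. INHBA was at least 5.1-fold higher in 1-2 KO (adjusted p = 0.001). It passed the filter on low counts through its 1-2 KO libraries, so a higher level there was a condition of its being tested. In 1-1 KO it was at least 2.11-fold higher with an adjusted p of 0.041, but 1-1 KO replicate 2 overlapped with WT and the call was lost without WT replicate 1 or 3 or without 1-1 KO replicate 1 or 3 (adjusted p between 0.086 and 0.20). INHBC, the neighbouring liver subunit on chromosome 12, had 13, 8 and 10 counts in WT, 17, 14 and 17 in 1-1 KO, and 21, 26 and 23 in 1-2 KO. It was 2.01-fold higher in 1-2 KO (adjusted p = 0.0061), a call that DESeq2 did not make (adjusted p = 0.059), and its difference in 1-1 KO was 0.43 ± 0.29 on the log2 scale (adjusted p = 0.23).

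Of the 3 TGF-beta ligands, TGFB2 fell in both knockouts. It had 1902, 1791 and 1541 counts in WT, 810, 741 and 731 in 1-1 KO, and 1182, 1140 and 1181 in 1-2 KO, which is 2.62-fold lower in 1-1 KO (adjusted p = 1.2e-11) and 1.68-fold lower in 1-2 KO (adjusted p = 6.3e-09). TGFB3 had 202, 207 and 180 counts in WT, 297, 309 and 287 in 1-1 KO, and only 75, 72 and 62 in 1-2 KO. It was thus 1.32-fold higher in 1-1 KO and 3.17-fold lower in 1-2 KO, without overlap. TGFB1, the most abundant of the 3 per kb, did not pass the test in either knockout, with -0.23 ± 0.14 and 0.0083 ± 0.14 on the log2 scale. Its 1491, 1349 and 1464 counts in WT and 1471, 1413 and 1346 in 1-1 KO stand beside 2223 in 1-2 KO replicate 1 and 1300 and 1392 in the other 1-2 KO libraries. Without WT replicate 3 and 1-2 KO replicate 1, TGFB1 was at -0.12 in 1-1 KO (adjusted p = 0.031) and at -0.14 in 1-2 KO (adjusted p = 0.033). In 1-1 KO it also passed without the filter on low counts (-0.24, adjusted p = 0.00014) and with only the 2 groups compared (-0.22, adjusted p = 0.023). Without 1-2 KO replicate 1 alone it passed in 1-1 KO (-0.23, adjusted p = 0.014) and in 1-2 KO (-0.24, adjusted p = 0.024).

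Of the BMP ligands among the members, BMP2, BMP4 and BMP6 rose in both knockouts. BMP8B, from the wider list of pathway genes and named after its values were seen, fell in both (-0.38 ± 0.077 and -0.40 ± 0.077). BMP2 was the most abundant BMP, at 119 ± 4.5 CPM in WT, 166 ± 0.9 in 1-1 KO and 156 ± 11 in 1-2 KO, and was 1.39-fold and 1.31-fold higher. BMP4 had 234, 260 and 207 counts in WT, 776, 752 and 719 in 1-1 KO, and 389, 364 and 355 in 1-2 KO, which is 2.80-fold higher in 1-1 KO (adjusted p = 4.5e-10) and 1.41-fold higher in 1-2 KO (adjusted p = 6.6e-05). BMP6, the ligand best known for hepcidin control, was rare. Its 5, 12 and 6 counts in WT became 41, 42 and 30 in 1-1 KO and 28, 16 and 27 in 1-2 KO, a 4.29-fold and a 2.74-fold rise without overlap with WT. BMP7 had 0 counts in all 9 libraries, and 3 counts would have been 0.0709 to 0.0951 CPM, which is the level that could have gone undetected. This limit covers counting error only. GDF15, a distant member of the family that is induced by cell stress, had 3392, 3264 and 3390 counts in WT, 5477, 5266 and 4897 in 1-1 KO, and 2318, 1641 and 1714 in 1-2 KO. It rose 1.35-fold in 1-1 KO and was 2.01-fold lower in 1-2 KO. The log2 fold changes were 0.43 and -1.01 with all libraries, and 0.53 and -1.05 without WT replicate 3 and 1-2 KO replicate 1. GDF15 was the highest ligand per kb in WT (44.7 ± 5.9 CPM per kb) and in 1-1 KO (60.3 ± 2.4 CPM per kb) but not in 1-2 KO (22.2 ± 3.6 CPM per kb).

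**Figure D2:**
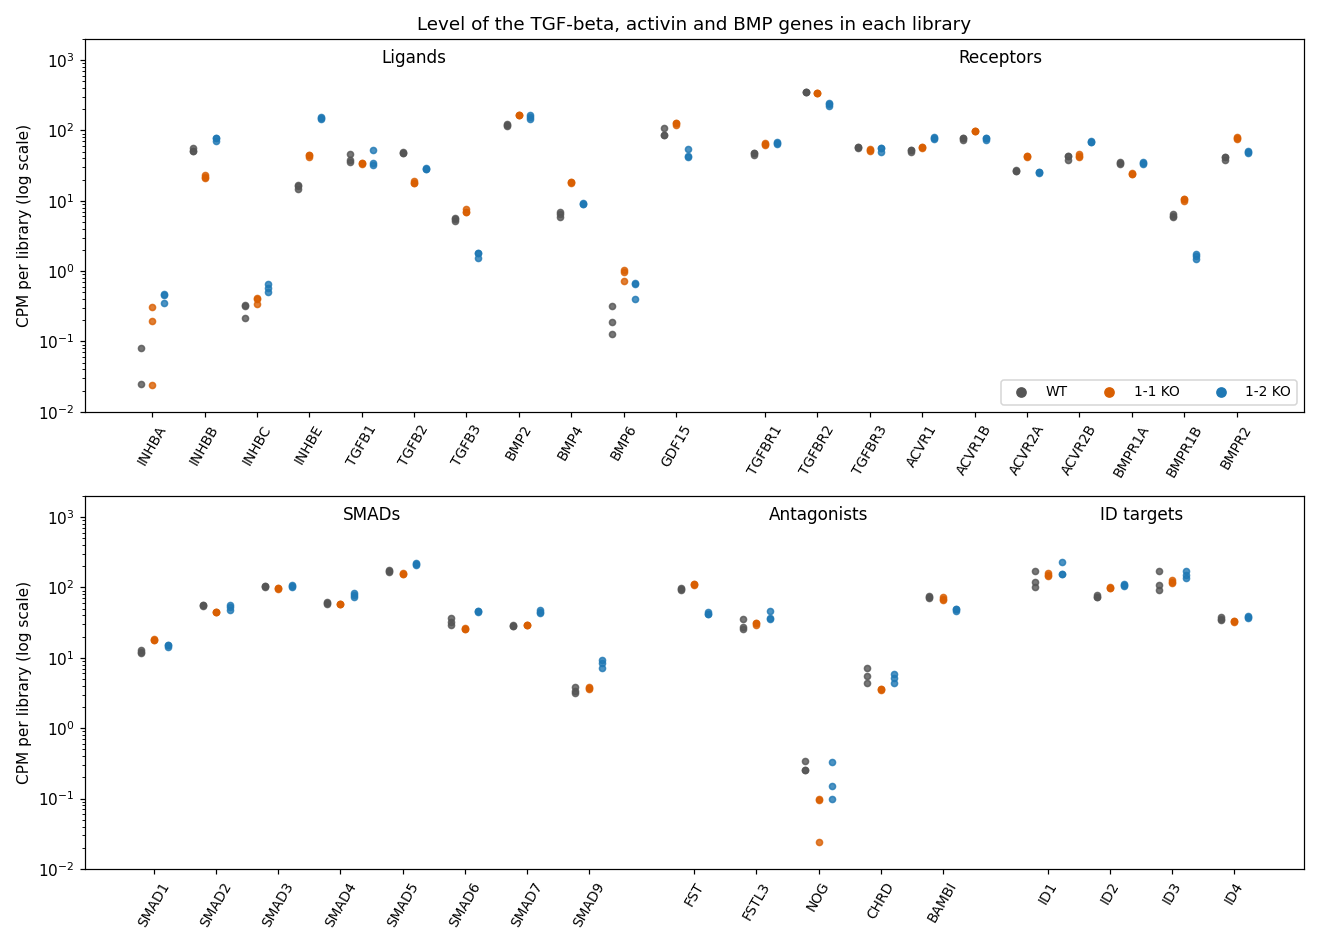
Level of 38 of the 39 members in each of the 9 libraries as CPM on a log scale (y axis), by role, for WT (grey), 1-1 KO (orange) and 1-2 KO (blue); each point is 1 library, libraries at 0 are not drawn, and BMP7 (0 in all) is left out. INHBE separates the lines at means of 15.9, 43.8 and 150 CPM, whereas most receptors and SMADs stay close together.

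Receptors changed less. Of the 10, 6 were higher and 2 lower in 1-1 KO, and 4 were higher and 2 lower in 1-2 KO. The share called was 80% and 60%, beside 63.4% and 54.4% of all tested genes. Only BMPR1B changed by more than 1 on the log2 scale. BMPR1B, a type I BMP receptor, had 235, 246 and 192 counts in WT, 449, 441 and 411 in 1-1 KO, and 69, 60 and 70 in 1-2 KO. It was 1.69-fold higher in 1-1 KO (adjusted p = 1.4e-06) and 3.79-fold lower in 1-2 KO (adjusted p = 1.1e-09), without overlap between lines. The other type I BMP receptor, BMPR1A, was more abundant per kb (3.41 CPM per kb in WT against 0.943 for BMPR1B). It was 1.43-fold lower in 1-1 KO, at 24.1 ± 0.59 CPM against 34.4 ± 1.4 in WT, and stood at 34.8 ± 1.1 CPM in 1-2 KO. BMPR2, the type II BMP receptor, rose 1.93-fold in 1-1 KO (77.9 ± 1.6 CPM against 40.3 ± 1.8) and 1.22-fold in 1-2 KO. ACVR1, a type I receptor used by BMPs and bound by activins, rose 1.12-fold and 1.51-fold.

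Among the activin receptors, the type II receptors parted by line. ACVR2A rose 1.61-fold in 1-1 KO (42.9 ± 0.31 CPM against 26.7 ± 0.64 in WT) and was at 25.4 ± 0.31 in 1-2 KO, where it did not pass the test. ACVR2B was at 43.6 ± 1.8 CPM in 1-1 KO, where it did not pass, and rose 1.66-fold in 1-2 KO (69.0 ± 1.3 CPM against 41.6 ± 2.8). ACVR1B, the type I activin receptor, rose 1.29-fold in 1-1 KO and had a log2 difference of 0.0064 ± 0.040 in 1-2 KO. TGFBR2 was the highest receptor of the 10 in every line per kb, with 51.3 ± 0.56 CPM per kb in WT. It was 1.49-fold lower in 1-2 KO (235 ± 10 CPM against 351 ± 3.8, adjusted p = 8.2e-09), with a difference of -0.038 ± 0.036 on the log2 scale in 1-1 KO. TGFBR1 rose in both, 1.38-fold and 1.43-fold. The co-receptor TGFBR3 was at -0.12 in 1-1 KO with an adjusted p of 0.049, a call that was lost with scaling by library size alone (adjusted p = 0.21) and on leaving out WT replicate 1 or 2, 1-1 KO replicate 1 or 3, or 1-2 KO replicate 2 (adjusted p between 0.052 and 0.17), and it was at -0.088 in 1-2 KO (adjusted p = 0.15).

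Among the 8 SMADs, 1 was higher and 4 lower in 1-1 KO, while 6 were higher and 0 lower in 1-2 KO. That is 62.5% and 75% called, beside 63.4% and 54.4% of all tested genes. In the direct comparison 7 SMADs were higher in 1-2 KO than in 1-1 KO and 1 was lower. Over all tested genes 33.1% were higher and 32.2% lower. The lines did not overlap for any of the 8, as for 69.8% of all tested genes. The SMAD3 call (log2 difference 0.093, adjusted p = 0.031) was lost without the filter on low counts (adjusted p = 0.11). It was also lost on leaving out WT replicate 3, 1-1 KO replicate 1 or 2, or 1-2 KO replicate 2 or 3. SMAD2 (0.22), SMAD5 (0.45) and SMAD1 (-0.28) were close to the median of their neighbouring tested genes (0.22, 0.43 and -0.25). SMAD3 was below its own (0.39), and SMAD4, SMAD6, SMAD7 and SMAD9 were above theirs. SMAD9, the BMP SMAD with the lowest level per kb, changed the most. It had 135, 118 and 122 counts in WT, 163, 150 and 150 in 1-1 KO, and 303, 336 and 373 in 1-2 KO, which is 2.40-fold higher in 1-2 KO (log2 fold change 1.26 ± 0.11, adjusted p = 3.3e-07). SMAD5, the most abundant SMAD per kb in every line, was at 171 ± 4.2 CPM in WT, 158 ± 1.9 in 1-1 KO and 216 ± 8.5 in 1-2 KO, with log2 fold changes of -0.12 (adjusted p = 0.013) and 0.34 (adjusted p = 2.5e-06). The call in 1-1 KO was lost with library size alone (adjusted p = 0.099) and without 1-1 KO replicate 1 (adjusted p = 0.055). SMAD1 was the one SMAD that rose in 1-1 KO (0.57 ± 0.060), and it also rose in 1-2 KO (0.30 ± 0.061). SMAD4, the shared partner, rose 1.32-fold in 1-2 KO (78.7 ± 4.6 CPM against 59.7 ± 2.0) and had -0.040 ± 0.045 in 1-1 KO.

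The inhibitory SMADs are both members of the family and targets of it. SMAD6 was at 32.6 ± 3.6 CPM in WT, 26.1 ± 0.28 in 1-1 KO and 45.5 ± 1.1 in 1-2 KO, which is 1.25-fold lower and 1.40-fold higher. SMAD7 rose 1.58-fold in 1-2 KO (45.4 ± 1.8 CPM against 28.7 ± 0.38, adjusted p = 1.8e-08), with 0.045 ± 0.045 on the log2 scale in 1-1 KO. Of the SMADs for TGF-beta and activin, SMAD2 fell 1.24-fold in 1-1 KO and had -0.092 ± 0.050 in 1-2 KO. SMAD3 differed by -0.090 ± 0.035 in 1-1 KO with an adjusted p of 0.038, which was lost with library size alone (adjusted p = 0.28) and on leaving out WT replicate 1, WT replicate 3 or any 1 of the 1-1 KO libraries (adjusted p between 0.056 and 0.14), and by 0.0034 ± 0.035 in 1-2 KO.

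Of the 4 tested antagonists, 1 was higher and 1 lower in 1-1 KO, and 1 was higher and 2 lower in 1-2 KO. The share called was 50% and 75%, beside 63.4% and 54.4% of all tested genes. FST (follistatin), which binds and neutralises activins, had 3818, 3678 and 2902 counts in WT, 4796, 4503 and 4610 in 1-1 KO, and 1749, 1645 and 1819 in 1-2 KO. It rose 1.17-fold in 1-1 KO (adjusted p = 0.00021) and was 2.23-fold lower in 1-2 KO (adjusted p = 3.8e-11). The 50 tested genes around FST on chromosome 5 had a median log2 fold change of -0.75 in 1-2 KO, against -1.16 for FST itself. In 1-2 KO the activin-binding protein FST was thus lower while the activin subunits INHBB, INHBC and INHBE were higher. FSTL3, which also binds activins, rose 1.34-fold in 1-2 KO (39.7 ± 6.2 CPM against 29.6 ± 5.0). Its log2 fold change was 0.43 ± 0.11 in 1-2 KO (adjusted p = 0.0044) and 0.058 ± 0.11 in 1-1 KO. Without WT replicate 3 and 1-2 KO replicate 1 these became 0.42 in 1-2 KO (adjusted p = 9.8e-07) and 0.19 in 1-1 KO (adjusted p = 0.0026). BAMBI, a receptor-like protein without a kinase that blocks signalling, was 1.51-fold lower in 1-2 KO (48.4 ± 1.9 CPM against 73.1 ± 2.8) and at 69.5 ± 4.1 in 1-1 KO. The BMP antagonist CHRD was 1.58-fold lower in 1-1 KO (3.58 ± 0.039 CPM against 5.67 ± 1.3). In 1-2 KO it was at -0.16 ± 0.15 (adjusted p = 0.37) with all libraries and at -0.42 ± 0.12 (adjusted p = 0.0061) without WT replicate 3 and 1-2 KO replicate 1. NOG had 10, 13 and 8 counts in WT, 4, 4 and 1 in 1-1 KO, and 14, 6 and 4 in 1-2 KO. It was not tested in the main fit. On leaving out any 1 library but 1-2 KO replicate 1, 5 antagonists were tested, NOG with them, and 2 were lower in 1-1 KO.

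The ID genes were abundant and changed little. ID1 (chromosome 20, 31605283 to 31606515) was the highest per kb of all ID genes in every line, with 107 ± 30 CPM per kb in WT, where ID3 (82.9 ± 29 CPM per kb) lay within the spread. With all libraries, ID2 was the only ID gene called in 1-1 KO, with a rise of 1.33-fold (99.6 ± 2.9 CPM against 75.0 ± 3.2, adjusted p = 7.5e-07), and it rose 1.44-fold in 1-2 KO (108 ± 3.3 CPM, adjusted p = 8.2e-08). ID1 had 4084, 4531 and 5461 counts in WT, 6443, 5950 and 6561 in 1-1 KO, and 9833, 6169 and 6170 in 1-2 KO. Its log2 fold change was 0.21 ± 0.17 in 1-1 KO (adjusted p = 0.29) and 0.46 ± 0.17 in 1-2 KO (adjusted p = 0.034), and the lines overlapped. The call in 1-2 KO was lost with DESeq2 (adjusted p = 0.14) and on leaving out WT replicate 1, WT replicate 2 or 1-2 KO replicate 1 (adjusted p between 0.12 and 0.18). WT replicate 3 had 1.55 times the mean ID1 level of the other WT libraries, and 1-2 KO replicate 1 had 1.51 times that of the other 1-2 KO libraries. ID3 had 3616, 4049 and 5469 counts in WT, 5476, 4948 and 4667 in 1-1 KO, and 7222, 5443 and 5944 in 1-2 KO. It did not pass the test in either knockout (-0.027 ± 0.17 and 0.30 ± 0.17). Without the filter on low counts, edgeR called ID1 in 1-1 KO (adjusted p = 6.3e-05) and ID3 in 1-2 KO (adjusted p = 2.6e-09).

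Without WT replicate 3 and 1-2 KO replicate 1, a choice made after the data were seen, the spread of these genes shrank and the calls changed. ID1 then rose by 0.44 ± 0.051 in 1-1 KO (adjusted p = 1.3e-07) and by 0.45 ± 0.055 in 1-2 KO (adjusted p = 4e-07). ID3 rose by 0.28 ± 0.057 in 1-1 KO (adjusted p = 0.00024) and by 0.51 ± 0.062 in 1-2 KO (adjusted p = 4.9e-07). ID4 did not pass in either knockout with all libraries (-0.11 ± 0.049 and 0.098 ± 0.049) or without these libraries (adjusted p = 0.098 and 0.15). In 1-1 KO it passed with the size factors of DESeq2 (-0.12, adjusted p = 0.040). It also passed there without WT replicate 1 (adjusted p = 0.044) or without 1-2 KO replicate 1 (adjusted p = 0.038). In 1-2 KO it passed with library size alone (0.15, adjusted p = 0.019). The counts of called members became 18 higher and 10 lower in 1-1 KO, and 21 higher and 9 lower in 1-2 KO. Of the 4 ID genes, 3 were then higher in each knockout. No share called over all tested genes in this fit stands beside these counts. They are therefore not read as a result about the members.

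**Figure D3:**
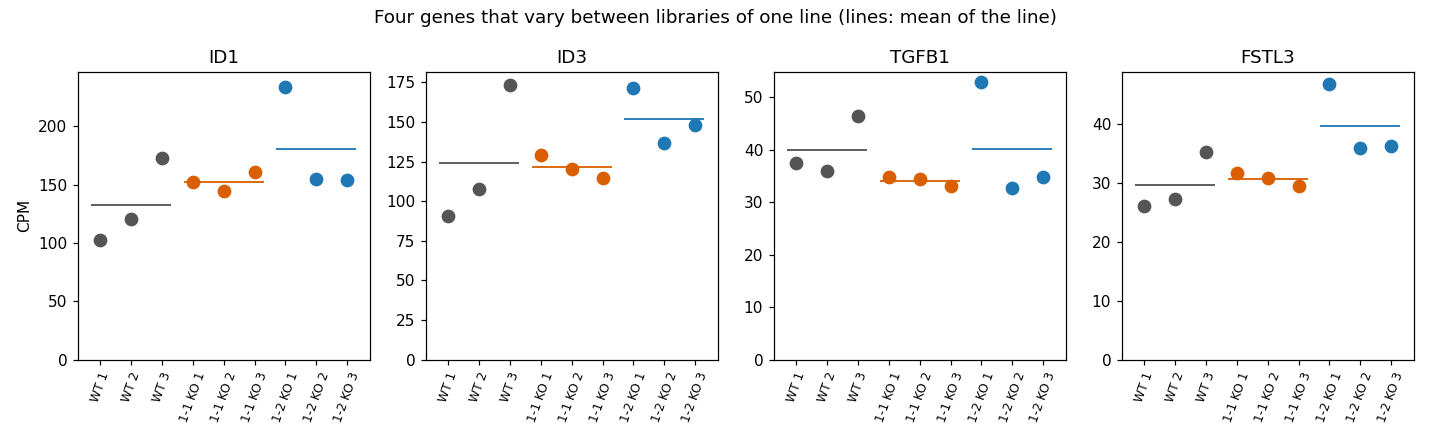
Level of ID1, ID3, TGFB1 and FSTL3 in CPM (y axis, from 0) in each of the 9 libraries (x axis), with a line at the mean of each line of cells; WT is grey, 1-1 KO orange and 1-2 KO blue. WT replicate 3 lies above the other WT libraries and 1-2 KO replicate 1 above the other 1-2 KO libraries in all 4 panels, by 1.55 and 1.51 times for ID1.

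The direct comparison of the knockouts was widest for BMPR1B (-2.68 ± 0.094 in 1-2 KO relative to 1-1 KO), TGFB3 (-2.07 ± 0.10), INHBB (1.78 ± 0.056) and INHBE (1.78 ± 0.046), all with an adjusted p of 4.1e-10 or less by edgeR. For INHBE this was a further rise above that in 1-1 KO, and for BMPR1B, TGFB3 and INHBB the knockouts lay on opposite sides of WT. BMP4 (-0.99 ± 0.069), BMPR2 (-0.66 ± 0.044) and ACVR2A (-0.75 ± 0.043) were lower in 1-2 KO than in 1-1 KO.

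Neighbouring genes on a chromosome shifted together in places, and the median log2 fold change of the 50 tested genes around each member is therefore given as a measure of its surroundings. It was within 0.25 of 0 for 26 of the 37 members in 1-1 KO and for 29 in 1-2 KO. The extremes were -0.49 around SMAD3 and 0.60 around ACVR1 in 1-1 KO, and -0.75 around FST and 0.38 around SMAD5 in 1-2 KO. The rise of ACVR1 in 1-1 KO (0.16) was thus below that of its neighbours, the fall of SMAD6 in 1-1 KO (-0.32) was less deep than that of its neighbours (-0.44), and the rise of SMAD5 in 1-2 KO (0.34) was close to that around it. ACVR2A (0.68) and BMPR2 (0.95) in 1-1 KO had neighbours at 0.44 and 0.47. INHBE in 1-2 KO (3.24) had neighbours at 0.073, and BMPR1B in 1-2 KO (-1.92) had neighbours at 0.039. The part of shared shifts in the members' changes was not tested.

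**Figure D4:**
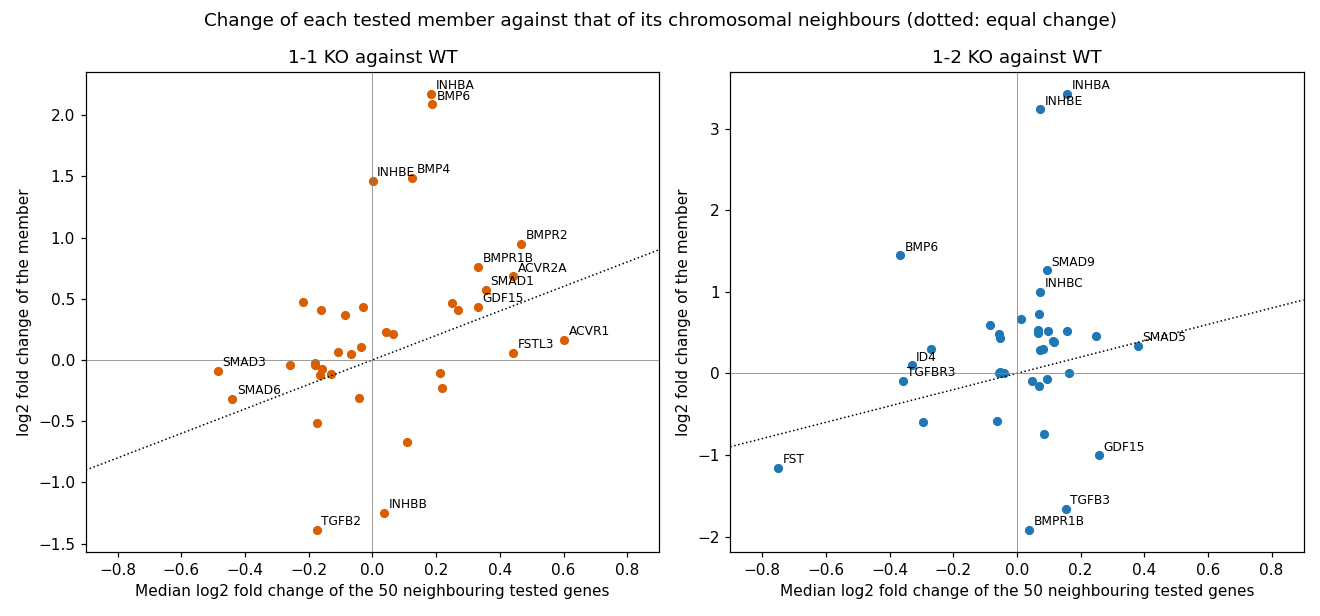
Log2 fold change against WT of each tested member (y axis) against the median of its 50 neighbouring tested genes (x axis) in 1-1 KO (left) and 1-2 KO (right); the dotted line marks equal change. INHBE, TGFB2 and INHBB in 1-1 KO and INHBE, BMPR1B and TGFB3 in 1-2 KO are among the members far from the dotted line. INHBA and BMP6, which have few counts, are also far from it in both knockouts. SMAD5 in 1-2 KO lies near it (0.34 against 0.38).

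Beyond the 39 members, a list of 83 other genes of the pathways included 60 that were tested. In 1-1 KO 22 were higher, 13 lower and 25 not called, and in 1-2 KO 29 were higher, 16 lower and 15 not called, beside the shares of 63.4% and 54.4% over all tested genes. The list holds SMAD6 and SMAD7, which were counted among the SMADs above. Of 7 tested BMP target genes other than the ID genes, all 7 were higher in 1-2 KO, while 1 was higher and 3 were lower in 1-1 KO. Over all tested genes, 28.2% were called higher in 1-2 KO, and 32.5% higher and 30.9% lower in 1-1 KO. The counts of BMP targets were the same without WT replicate 3 and 1-2 KO replicate 1. This list was chosen with earlier results of these data known, so that its counts are a description only. The 7 include SMAD6 and SMAD7 and leave out ID3 and ID4, which did not pass in 1-2 KO. HAMP, which encodes hepcidin, had 91, 87 and 61 counts in WT, 22, 18 and 14 in 1-1 KO, and 247, 300 and 424 in 1-2 KO. Its log2 fold change was -2.32 ± 0.28 in 1-1 KO (adjusted p = 5.9e-06) and 1.86 ± 0.19 in 1-2 KO (adjusted p = 1.3e-06), with no overlap between lines. ATOH8, a transcription factor that acts on the hepcidin gene and was named after its values were seen, had 15, 16 and 11 counts in WT, 3, 7 and 3 in 1-1 KO, and 45, 34 and 55 in 1-2 KO (-1.85 ± 0.41 and 1.5 ± 0.27). HEY1, a Notch and BMP target, rose by 1.19 ± 0.097 in 1-2 KO and had 0.19 ± 0.10 in 1-1 KO. GATA2 rose in both, by 0.49 ± 0.075 and 0.55 ± 0.075. The BMP2, BMP4 and BMP6 ligands thus rose in both knockouts, and HAMP rose in 1-2 KO and fell in 1-1 KO.

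Of 9 tested TGF-beta and activin target genes, 3 were higher and 1 lower in 1-1 KO, and 4 were higher and 3 lower in 1-2 KO. That is 44.4% and 77.8% called, beside 63.4% and 54.4% of all tested genes. TGFBI fell in 1-1 KO by 0.26 on the log2 scale and had 0.08 ± 0.038 in 1-2 KO. CDKN2B, a cell cycle inhibitor, rose by 0.21 ± 0.059 in 1-1 KO and fell by 1.33 in 1-2 KO, from 1087, 1025 and 942 counts in WT to 507, 426 and 436. KLF10, a zinc finger factor induced early by TGF-beta, rose by 0.29 ± 0.044 and 0.21 ± 0.044. TSC22D1 had 0.022 ± 0.033 in 1-1 KO and rose by 0.36 ± 0.033 in 1-2 KO.

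**Figure D5:**
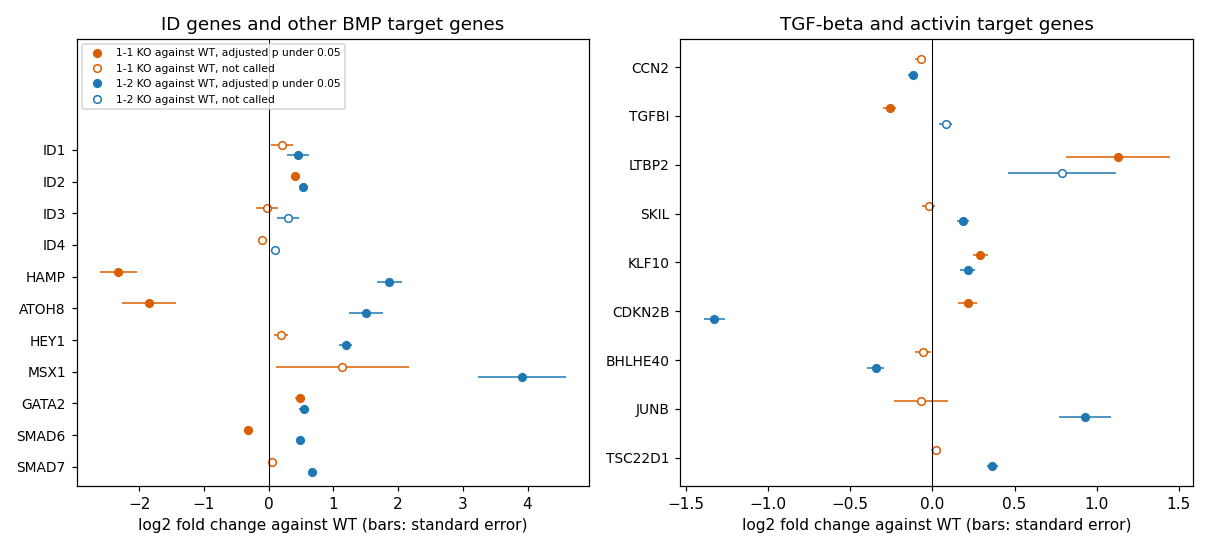
Log2 fold change against WT (x axis, bars are standard errors) of the ID genes and other BMP target genes (left) and of TGF-beta and activin target genes (right) in 1-1 KO (orange) and 1-2 KO (blue); filled points have an adjusted p under 0.05. HAMP lies at -2.32 in 1-1 KO and at 1.86 in 1-2 KO, and CDKN2B at 0.21 and -1.33.

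Of 12 tested genes for latency and activation of the ligands, 8 were higher and 3 lower in 1-1 KO, and 5 were higher and 2 lower in 1-2 KO. The share called was 91.7% and 58.3%, beside 63.4% and 54.4% of all tested genes. ITGB8, the integrin subunit that activates latent TGF-beta, had 17, 33 and 21 counts in WT, 218, 219 and 234 in 1-1 KO, and 51, 48 and 45 in 1-2 KO (3.04 ± 0.17 and 0.85 ± 0.21). TLL1, a protease that cleaves the antagonist chordin, rose by 2.48 ± 0.072 and 2.01 ± 0.073. LTBP1, which tethers latent TGF-beta to the matrix, rose by 0.62 ± 0.043 in 1-1 KO and fell by 0.54 in 1-2 KO.

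Of 6 other secreted antagonists tested, 4 were higher and 1 lower in 1-1 KO, and 3 were higher and 1 lower in 1-2 KO. That is 83.3% and 66.7% called, beside 63.4% and 54.4% of all tested genes. CER1, an antagonist of nodal and BMPs, was lower in 1-1 KO (-1.17 ± 0.091) and higher in 1-2 KO (1.45 ± 0.079), and FSTL1 was higher in both (1.02 ± 0.041 and 1.18 ± 0.041). Of 12 tested other ligands, 5 were higher and 1 lower in 1-1 KO, and 6 were higher and 2 lower in 1-2 KO. For these ligands the share called was 50% and 66.7%, beside the same shares of all tested genes. GDF7 rose by 0.79 ± 0.075 and 1.59 ± 0.073, and GDF11 by 0.56 ± 0.049 and 0.59 ± 0.049.

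Of 5 other receptors and co-receptors tested, 1 was higher and 1 lower in 1-1 KO, and 1 was higher and 2 lower in 1-2 KO. That is 40% and 60% called, beside 63.4% and 54.4% of all tested genes. ACVR1C, a type I receptor for nodal and activins, rose by 0.60 ± 0.079 in 1-1 KO and fell by 0.56 in 1-2 KO, HJV, the hepatic BMP co-receptor hemojuvelin, fell by 0.97 and 0.37, and ACVRL1 rose by 1.31 ± 0.20 in 1-2 KO with 0.45 ± 0.22 in 1-1 KO. Of 11 tested SMAD regulators, 1 was higher and 3 lower in 1-1 KO, and 4 were higher and 6 lower in 1-2 KO. For the SMAD regulators the share called was 36.4% and 90.9%, beside the same shares of all tested genes. Among these regulators, SMURF1, a ubiquitin ligase for SMADs and receptors, was lower in 1-1 KO (-0.56 ± 0.040) and higher in 1-2 KO (0.20 ± 0.039). SMURF2 and TGIF2 rose in 1-2 KO by 0.45 ± 0.053 and 0.48 ± 0.044, with -0.09 ± 0.054 and -0.02 ± 0.045 in 1-1 KO, and USP15 fell in both by 0.40 and 0.26.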

How the data were processed

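The libraries were made from total RNA with a stranded mRNA kit. According to the methods, STAR was used by the authors for alignment to hg38 (annotation version 104) and featureCounts for counting. Read counts per gene were deposited as whole numbers that had not been normalized. Tool versions and whether counting used the strand are not given in the sources used here. Opposite-strand genes with counts overlap TGFB1 (HNRNPUL1, CCDC97), ACVR2A (ORC4), TGFB3 (IFT43), BMP6 (TXNDC5) and CHRD (THPO), so reads of these pairs may not be separated.

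Positions came from GENCODE 44. edgeR 4.0.16 (R 4.3.3) was run on all 9 libraries in 1 fit, after filterByExpr (minimum count 10, minimum total count 15) and TMM. Its quasi-likelihood test was adjusted by Benjamini-Hochberg over 17207 genes, and every adjusted p without another tool is from it. CPM uses TMM-scaled library sizes. CPM per kb divides by the union of annotated exons. Values after ± are SD for CPM (n = 3) and SE for log2 fold changes. Folds between lines are ratios of mean CPM, and the floor was 3 counts per library. Library pairs of a line differed by a chi-square per degree of freedom of 2.07 to 16.1, so no library was a copy. The steps were tested on simulated data. Alternatives were DESeq2 1.42.0, other scalings, filters and thresholds, the replicate number as a block, neighbour subtraction and leaving libraries out. Whether the 3 libraries of a line came from separate cultures is stated only as biological replicates, and p-values measure the spread between these libraries. The members and lists were chosen with earlier results of these data known. Counts in each library are given for members that changed by more than 1 on the log2 scale in either knockout, and 2 genes per knockout with the smallest adjusted p are named from each group of other pathway genes. 1 of these genes is not reported here and was left out of the list. ID1, ID3, TGFB1 and NOG are also given by library, chosen after their values were seen.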

Additional observations from a re-analysis of the deposited data

Results flagged for a closer look

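For 7 members the knockouts differed from WT in opposite directions, each past the test, and the difference between the knockouts was tested in the same edgeR fit. The log2 difference of 1-2 KO minus 1-1 KO was 1.78 for INHBB (adjusted p = 4e-12), -2.07 for TGFB3 (adjusted p = 4.1e-10), -1.44 for GDF15 (adjusted p = 1.3e-08), -2.68 for BMPR1B (adjusted p = 1.2e-11), -1.39 for FST (adjusted p = 3.3e-12), 0.80 for SMAD6 (adjusted p = 6.5e-08) and 0.45 for SMAD5 (adjusted p = 7.1e-08). For all 7, the 3 libraries of 1 knockout lay above all WT libraries and those of the other knockout below. Over all tested genes, 11.7% were called in opposite directions, and the libraries did not overlap for 68.9% in 1-1 KO against WT and 58.4% in 1-2 KO against WT. For SMAD5 the neighbouring genes differed by 0.43 between the knockouts, close to SMAD5 itself, and for FST they differed by -0.67. SMAD6 had neighbours at 0.36. In 1-1 KO against WT, the neighbours were at 0.33 for GDF15 (0.43), 0.27 for TGFB3 (0.41) and 0.33 for BMPR1B (0.76). They were at -0.44 for SMAD6 (-0.32) and -0.13 for SMAD5 (-0.12). Around INHBB (-1.25) and FST (0.23) they were at 0.037 and 0.043. The part of these regional shifts was not tested.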

How the results depend on the processing

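The numbers of called members stayed within 1.5 times their reported values under every scaling, filter, test and sample choice tried. With a change over 0.5 in place of 1 on the log2 scale, 12, 18 and 20 members passed in 1-1 KO against WT, 1-2 KO against WT and 1-2 KO against 1-1 KO. No share over all tested genes stands beside these counts or those with the replicate block below. Neither is read as a result about the members. Leaving out 1 library gave 15 to 17 higher and 7 to 11 lower in 1-1 KO, and 19 to 21 higher and 7 to 8 lower in 1-2 KO. These counts include NOG where it passed the filter in such a fit. Over all tested genes the ranges were 5191 to 5874 higher and 4854 to 5559 lower in 1-1 KO. In 1-2 KO they were 4364 to 4782 higher and 4176 to 4684 lower. The replicate numbers did not pair the libraries, since same-numbered libraries had correlations between -0.30 and 0.13. With the replicate number as a block, 15 members were higher and 8 lower in 1-1 KO, 20 and 7 in 1-2 KO, and 18 and 11 in 1-2 KO against 1-1 KO; the block took INHBA in 1-1 KO to an adjusted p of 0.053, TGFBR3 in 1-1 KO to 0.058 and BMP6 in 1-2 KO against 1-1 KO to 0.073, and changed no other call of a member.

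Apart from neighbour subtraction, 1877 log2 fold changes of members were recomputed. Of these, 1761 kept direction and side of the threshold, 51 lost the call, 28 gained it and 37 changed sign. None of the 1386 values of called members changed sign. In 1-1 KO against WT, library size alone gave 0.013 for TGFBR2, 0.011 for SMAD4 and 0.024 for ID3. In 1-2 KO against WT, TGFB1 was at -0.0036 with DESeq2, -0.0043 without the filter, -0.0096 with the block and -0.0022 with only the groups compared. ACVR1B was at -0.0025 with DESeq2 or its size factors, -0.0072 without the filter and -0.0044 with only the groups compared, and SMAD3 was at -0.0055, -0.0102 and -0.0073. On leaving out 1 library, or WT replicate 3 and 1-2 KO replicate 1 together, the values that changed sign ranged in 1-1 KO from -0.21 to 0.29 for ID3 (highest without WT replicate 3), from -0.00056 to 0.099 for ACVR2B and from -0.029 to 0.20 for FSTL3. In 1-2 KO against WT they ranged from -0.24 (without 1-2 KO replicate 1) to 0.14 for TGFB1, from -0.030 to 0.035 for ACVR1B, from -0.013 to 0.047 for BMPR1A, from -0.014 to 0.033 for SMAD3 and from -0.42 to 0.029 for CHRD. In 1-2 KO against 1-1 KO TGFB1 ranged from -0.016 to 0.36. After subtraction of the neighbours, TGFBR3 was at 0.045, ACVR1 at -0.44, SMAD3 at 0.40, SMAD5 at 0.012 and SMAD6 at 0.12 in 1-1 KO, SMAD5 at -0.041 in 1-2 KO, and SMAD2 at -0.0011, SMAD3 at -0.30 and ID2 at -0.15 in 1-2 KO against 1-1 KO. The cause of these changes was not tested. INHBA, INHBC and BMP6 rest on few counts, which limits their precision.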
